A study of Mus musculus with 144 samples.

Results

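The probes ORB_1112422 and ORB_0409056 were followed through all 18 groups of a blood microRNA (miRNA) study in mice. They are 2 of the 1262 mouse probes of the array, and of the 742 mouse probes that were tested. They were chosen by their measured levels at month 6, as the probes that separated crocidolite from dispersion medium (DM) at a Benjamini-Hochberg adjusted p under 0.10. ORB_1112422 was higher with crocidolite and ORB_0409056 was lower. The files used here do not pair either probe with a miRNA name or a sequence, and neither identifier matched an entry in the RefSeq gene or miRNA tables. The probes are therefore given by identifier, and no function is assigned to them.

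Male C57BL/J6 mice, 7 weeks old when obtained, received DM alone, 1, 10, 40 or 80 µg of multi-walled carbon nanotubes (MWCNT), or 120 µg of crocidolite asbestos. DM was the negative control and crocidolite the positive control. The mice were killed at month 1, 6 or 12, with 8 mice in each of the 18 combinations and 1 array for each of the 144 mice. Each array measured small RNA from whole blood with 1 fluorescent dye, and each probe was spotted 3 times. No animal was measured at more than 1 month. Crocidolite was given at 1 dose, which no MWCNT group received, so material and dose cannot be told apart. Whole blood is a mixture of cells and plasma, and fewer cells of a type and less RNA per cell cannot be told apart. Since no probe could be named, the tissue label was not checked against blood miRNAs.

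miRNAs are short RNAs that pair with messenger RNAs and lower their translation or stability. Those in whole blood come mainly from red cells, white cells and platelets, and a smaller part circulates outside cells. Inhaled fibres such as crocidolite persist in the lung and the pleura, and blood miRNAs are studied as readouts of exposure that can be sampled without the lung.

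Any pair of arrays correlated at 0.92 to 1.00 (median 0.99). Each array had its own threshold, taken from its 21 empty spots as their 10% trimmed mean plus 5 SD, and 486 to 1171 mouse probes exceeded it. Arrays differed in brightness, the mean log2 intensity of the tested probes before scaling. The month 6 DM group had the lowest brightness, 8.40 ± 0.36 (SD, n = 8), and the means of the other 17 groups were 8.50 to 8.80. Its replicates 4 and 3 were the dimmest of all 144 arrays, at 7.94 and 7.95. DM arrays lay at positions A and C of the slides and crocidolite arrays at B and D, so position and exposure cannot be told apart in that comparison.

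ORB_1112422 was the dimmer of the 2 probes. Levels below are log2 normalized intensities with an offset of 50, which compresses the differences of dim probes. In the 8 DM mice of month 6 the level was 6.60, 6.65, 6.21, 6.21, 6.47, 6.65, 6.55 and 6.23, in the order of replicates 1 to 8. In the 8 crocidolite mice of month 6 it was 6.84, 6.78, 6.80, 6.89, 7.00, 7.05, 6.49 and 6.62. Replicates 3, 4 and 8 of DM were low, and 6 of the 8 crocidolite mice were above the highest DM mouse. The groups overlapped through crocidolite replicates 7 and 8. The means were 6.45 ± 0.20 (SD, n = 8) with DM and 6.81 ± 0.18 with crocidolite, a log2 difference of 0.36 ± 0.08 (SE). With normexp and trimmed-mean scaling in place of quantile normalization the difference was 0.04 ± 0.15, with the median of all tested probes at -0.19. It was 0.43 ± 0.20 with the scaling of the study's methods and 0.39 ± 0.21 in the deposited table. That median was then -0.17 and -0.22. The order of single mice also depended on the scaling. In the deposited table replicate 3 was the highest DM mouse, at 6.28, and only crocidolite replicate 6, at 6.42, was above it.

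**Figure D1:**
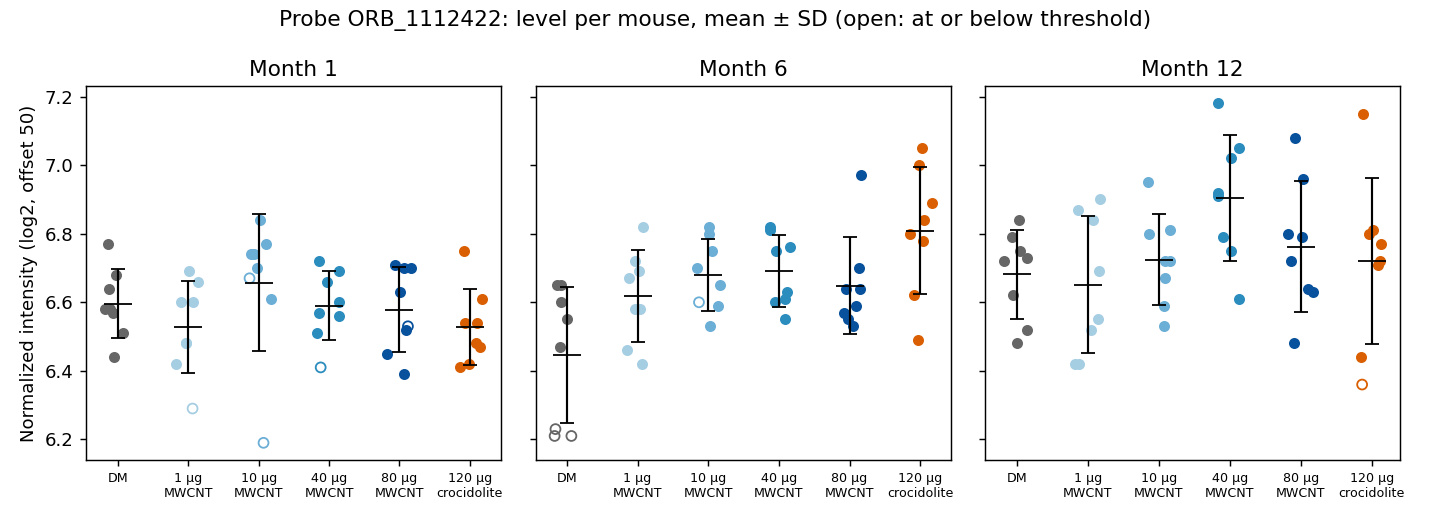
Level of ORB_1112422 (log2 normalized intensity, offset 50) for each mouse, by exposure, at months 1, 6 and 12. Points are single mice, filled where the probe was above the array's threshold and open where it was not, and black lines are the mean ± SD of 8 mice. DM at month 6 has the lowest mean, 6.45, with 3 open points near 6.2, and crocidolite at month 6 averages 6.81.

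ORB_0409056 moved the other way. In DM mice of month 6 its level was 6.80, 7.01, 7.45, 7.36, 7.11, 7.13, 6.87 and 7.24, in the same order of replicates. In crocidolite mice it was 6.81, 6.75, 7.06, 7.10, 6.89, 6.72, 6.52 and 6.77. DM replicates 3 and 4 were the highest. All 8 crocidolite mice lay below the DM median and 4 lay below the lowest DM mouse, so the groups overlapped. The means were 7.12 ± 0.23 with DM and 6.83 ± 0.19 with crocidolite, a log2 difference of -0.29 ± 0.07. It was -0.39 ± 0.17 after normexp and trimmed-mean scaling. With the scaling of the study's methods it was -0.58 ± 0.19, and in the deposited table -0.62 ± 0.20. In these settings the median of all tested probes was -0.19, -0.17 and -0.22.

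**Figure D2:**
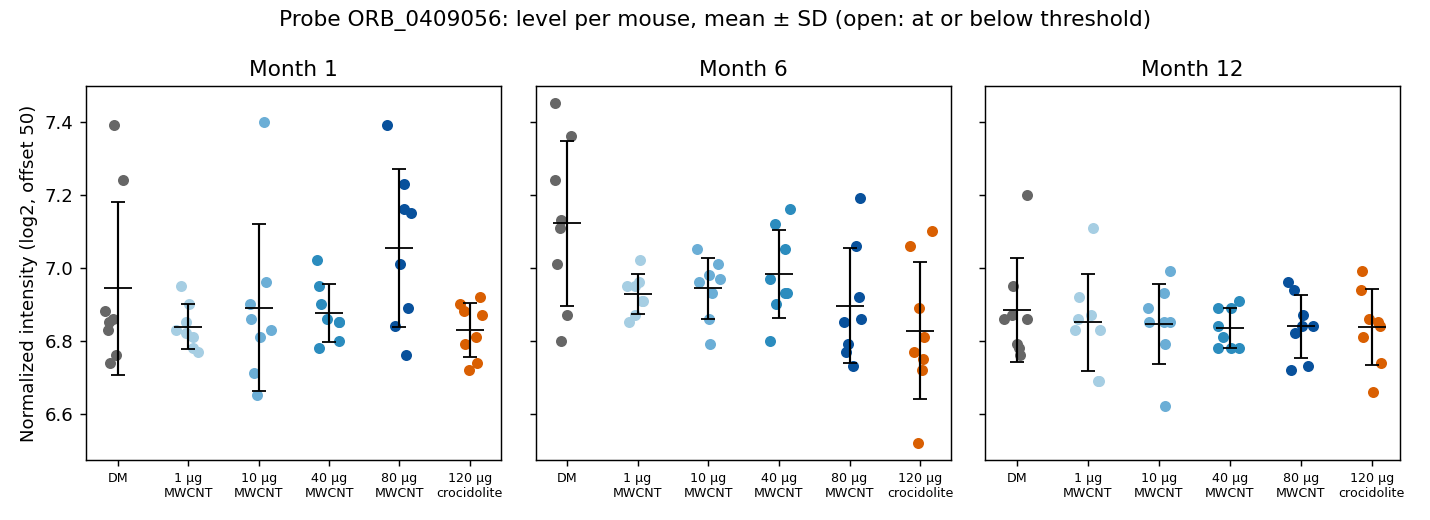
Level of ORB_0409056 (log2 normalized intensity, offset 50) for each mouse, by exposure, at months 1, 6 and 12. Points are single mice and black lines are the mean ± SD of 8 mice. DM at month 6 has the highest mean, 7.12, and the crocidolite means lie at 6.83, 6.83 and 6.84 in months 1, 6 and 12.

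These month 6 values chose the probes and are a description, not a test. Over the 742 tested probes, 2 (0.27%) had an adjusted p under 0.10 in this limma contrast, 1 higher and 1 lower, and they are the 2 probes themselves. The adjusted p that placed them inside the threshold was 0.00794 for ORB_1112422 and 0.0373 for ORB_0409056, and that of the next probe outside it was 0.166. Without adjustment, 111 probes had a p under 0.05. With the fold limit of 1.5 in the study's methods added (0.58 in log2), 0 of the 742 probes passed, the 2 probes included. That count used the quantile-normalized levels, whose offset compresses the differences of dim probes. With the scaling of the study's methods ORB_0409056 was at -0.58, near the limit, and in the deposited table at -0.62, past it. ORB_1112422 was within the limit there, at 0.43 and 0.39. Whether any probe met the study's full criterion on those scales was not tested.

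The DM group of month 6 stood at the end of the order of the 18 group means for both probes. Its arrays and the crocidolite arrays of month 6 chose the probes, so their ranks and differences here are a description, not a test. It was the lowest of 18 for ORB_1112422 and the highest of 18 for ORB_0409056. Crocidolite at month 6 was second highest for ORB_1112422, below 40 µg MWCNT at month 12 (6.91 ± 0.18). For ORB_0409056 it was the lowest of 18, but its mean of 6.83 differed by no more than 0.01 from those of crocidolite at month 1 (6.83) and month 12 (6.84). DM itself had means of 6.60, 6.45 and 6.68 for ORB_1112422 at months 1, 6 and 12, and of 6.94, 7.12 and 6.88 for ORB_0409056. DM at month 6 differed from the mean of DM at months 1 and 12 by -0.19 ± 0.07 and by 0.21 ± 0.06. Crocidolite at month 6 differed from crocidolite at months 1 and 12 by 0.18 ± 0.07 and by 0.00 ± 0.06. The 18 means spanned 0.38 for ORB_1112422 and 0.29 for ORB_0409056. Neighbours in the order were at most 0.10 and 0.07 apart, against a standard error of a difference of 0.08 and 0.07, so each gap was under 2 standard errors.

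The MWCNT mice of month 6 were set against the same 8 DM mice, so their differences share those arrays with the contrast that chose the probes. For ORB_1112422 the differences from DM were 0.17, 0.23, 0.24 and 0.20 at 1, 10, 40 and 80 µg, each ± 0.08. Between 6 and 8 of the 8 mice at each dose were above the DM median. For ORB_0409056 they were -0.19, -0.18, -0.14 and -0.22, each ± 0.07, and 6 to 8 of the 8 mice at each dose were below the DM median. By the adjusted p under 0.10, the share of all tested probes past the threshold in these comparisons was 0%, 0%, 0% and 3.37%, from which nothing is read here because the DM arrays chose the probes. Every dose lay on the crocidolite side of DM for both probes, except under other scalings for ORB_1112422. There, 1 µg was at -0.10 in the deposited table and at -0.06 with the methods' scaling. With normexp and trimmed-mean scaling all doses moved, to -0.24, -0.12, 0.00 and -0.18, while the median of all tested probes moved to -0.27, -0.22, -0.16 and -0.27. ORB_0409056 stayed below DM at every dose under these 3 scalings.

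The 4 MWCNT groups together averaged 6.66 for ORB_1112422 and 6.94 for ORB_0409056 at month 6. The crocidolite difference of 0.36 for ORB_1112422 thus consisted of 0.21 between DM and the MWCNT mean and 0.15 between the MWCNT mean and crocidolite. For ORB_0409056 the difference of -0.29 consisted of -0.18 and -0.11. At months 1 and 12 the MWCNT mean differed from DM by -0.01 and 0.08 for ORB_1112422 and by -0.03 and -0.04 for ORB_0409056. Crocidolite against 40 µg MWCNT at month 6 gave 0.11 ± 0.08 and -0.15 ± 0.07, as a description because the crocidolite arrays chose the probes.

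**Figure D3:**
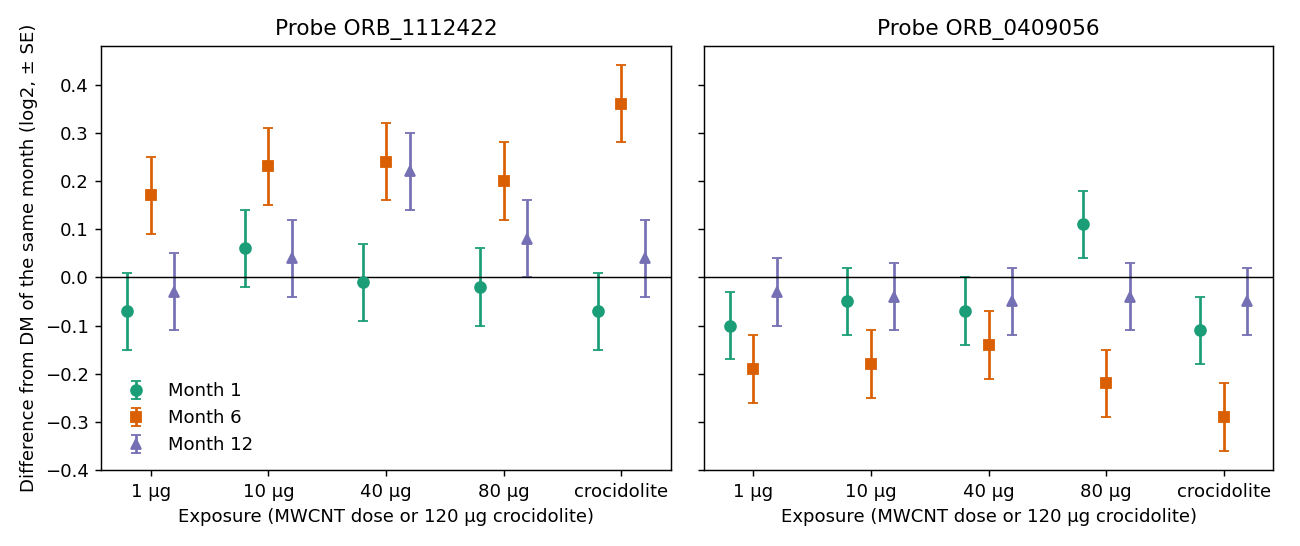
Difference from DM of the same month (log2, ± SE of the fit) for each MWCNT dose and for 120 µg crocidolite, with ORB_1112422 on the left and ORB_0409056 on the right. Month 6 (squares) lies above 0 at every exposure for ORB_1112422, from 0.17 to 0.36, and below 0 for ORB_0409056, from -0.14 to -0.29, and all points of a month share its DM mice.

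Months 1 and 12 used other mice and could be tested. No crocidolite difference passed there. At month 1 ORB_1112422 in DM mice ranged from 6.44 to 6.77 (median 6.58) and in crocidolite mice from 6.41 to 6.75 (median 6.51). ORB_0409056 ranged from 6.74 to 7.39 (median 6.85) with DM and from 6.72 to 6.92 (median 6.84) with crocidolite. The groups overlapped nearly over their whole range for ORB_1112422, and for ORB_0409056 the crocidolite mice lay within the lower part of the DM range but for 1 mouse. The differences from DM were -0.07 ± 0.08 (95% interval -0.22 to 0.09, limma adjusted p = 0.987) and -0.11 ± 0.07 (-0.26 to 0.03, adjusted p = 0.987). They were further from 0 with the methods' scaling (-0.40 ± 0.20 and -0.29 ± 0.19) and in the deposited table (-0.42 ± 0.21 and -0.31 ± 0.20), without passing (adjusted p = 0.93 and 0.878). With array position in the fit ORB_1112422 was at 0.17 ± 0.12 (adjusted p = 0.998).

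At month 12 ORB_1112422 ranged from 6.48 to 6.84 (median 6.73) in DM mice and from 6.36 to 7.15 (median 6.74) in crocidolite mice. ORB_0409056 ranged from 6.76 to 7.20 (median 6.86) and from 6.66 to 6.99 (median 6.84). The groups overlapped for both probes. The differences were 0.04 ± 0.08 (95% interval -0.12 to 0.19, limma adjusted p = 0.942) and -0.05 ± 0.07 (-0.19 to 0.10, adjusted p = 0.913). The difference of ORB_1112422 at month 12 was 0.28 ± 0.12 with array position in the fit, where month 6 was 0.60, and 0.04 ± 0.20 with the methods' scaling, where month 6 was 0.43. It did not pass in either (adjusted p = 0.682 and 0.998), and whether month 6 differed from months 1 and 12 was not tested, because its arrays chose the probes. In limma 0 of 742 probes (0%) passed at either month, with 39 and 38 at an unadjusted p under 0.05. The crocidolite effect at month 12 minus that at month 1 was 0.10 ± 0.11 and 0.07 ± 0.10 (limma adjusted p = 0.989 for both).

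MWCNT against DM at months 1 and 12 gave no passing difference for either probe at any of the 4 doses, but 1 passed for ORB_1112422 once array position was in the fit. For ORB_0409056 the values ran from -0.10 to 0.11 at month 1 and from -0.05 to -0.03 at month 12. For ORB_1112422 they ran from -0.07 to 0.06 at month 1 and from -0.03 to 0.22 at month 12. The highest was 40 µg at month 12, where the 8 mice were at 7.18, 6.92, 6.91, 6.79, 7.05, 7.02, 6.75 and 6.61. The 8 DM mice of that month were at 6.73, 6.84, 6.72, 6.75, 6.79, 6.48, 6.52 and 6.62. Of the 40 µg mice, 7 were above the DM median and 5 above the highest DM mouse. The difference was 0.22 ± 0.08 (95% interval 0.07 to 0.38) and did not pass in limma (adjusted p = 0.515), where 1 of 742 probes (0.135%) did. With array position in the fit it was 0.47 ± 0.12 and passed (limma adjusted p = 0.088). That position term rested on few arrays off their usual position. They were replicate 8 of 40 µg at month 1 and of 1 and 80 µg at month 12, all from scan day 7. Crocidolite at month 12 was lower than 40 µg MWCNT by a log2 difference of -0.19 ± 0.08, which also did not pass (limma adjusted p = 0.994, 0% of probes passing).

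The dose trend over the 4 MWCNT groups, given as the fitted change from 1 to 80 µg, did not pass for either probe in any month. For ORB_1112422 it was 0.05 ± 0.07, 0.05 ± 0.07 and 0.18 ± 0.07 at months 1, 6 and 12 (limma adjusted p = 0.854, 0.886 and 1.00). For ORB_0409056 it was 0.16 ± 0.07, 0.00 ± 0.07 and -0.01 ± 0.07 (adjusted p = 0.402, 0.996 and 1.00). At month 6 the trend does not use the DM or crocidolite mice, and its 95% intervals were -0.10 to 0.19 and -0.13 to 0.13. The share of probes that passed the trend was 0.135%, 0% and 0% at months 1, 6 and 12.

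The months themselves differed for ORB_1112422. Mice of later months were also older, so age and time since exposure cannot be told apart. Over all 6 exposures it was higher at month 12 than at month 1 by 0.16 ± 0.03 (95% interval 0.10 to 0.22, limma adjusted p = 2.84e-05). The mean was higher at month 12 in each of the 6 exposures, except at 80 µg with normexp and trimmed-mean scaling (-0.02 ± 0.15) and at 10 µg without the 4 arrays that were scanned after a repeat dip (0.00 ± 0.08), by 0.09 in DM, 0.12, 0.06, 0.32 and 0.18 at 1, 10, 40 and 80 µg MWCNT, and 0.19 with crocidolite. Taken one exposure at a time, 6.2%, 2.96%, 2.43%, 3.1%, 19.9% and 2.96% of the tested probes passed, in the same order. Such differences were common, since 257 of 742 probes (34.6%) passed in this comparison, 111 of them higher (15%) and 146 lower (19.7%). Within the scan days that held both months the difference was 0.17, 0.16, 0.21, 0.09 and -0.01, the last from 4 arrays against 1. These daily values did not match the exposures between months, and the 0.16 came from 20 arrays against 4. For ORB_1112422 the difference at 40 µg passed (0.32 ± 0.08, limma adjusted p = 0.00858), but with normexp and trimmed-mean scaling it did not (0.34 ± 0.15, adjusted p = 0.232). The difference at 80 µg did not pass (adjusted p = 0.104), but it did with array position in the fit (0.0603), without those 4 arrays (0.0832) and without the 2 dimmest DM arrays of month 6 (0.0898). That of crocidolite did not pass either (adjusted p = 0.252), but it did with the methods' scaling (0.60 ± 0.20, 0.0808) and in the deposited table (0.62 ± 0.21, 0.0831). Whether the month difference was larger at 40 µg than at other exposures was not tested.

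ORB_0409056 was lower at month 12 by -0.06 ± 0.03 over all exposures, which did not pass (95% interval -0.12 to 0.00, limma adjusted p = 0.142). At 80 µg the difference was -0.21 ± 0.07 and passed (limma adjusted p = 0.0448), in a comparison where 19.9% of probes did. It did not pass with scan day or array brightness in the fit (-0.16 and -0.12, adjusted p = 0.212 and 0.208), nor in the deposited table, with the methods' scaling or with normexp and trimmed mean (-0.43, -0.40 and -0.35, adjusted p = 0.169, 0.177 and 0.166). The 80 µg mice of month 1 had the second highest mean of the 18 groups for this probe, 7.05 ± 0.22, and a brightness of 8.54 ± 0.25 against 8.75 ± 0.16 at month 12. Month 6 against month 1 over the 4 MWCNT doses, which uses none of the arrays that chose the probes, gave 0.07 ± 0.04 for ORB_1112422 and 0.02 ± 0.04 for ORB_0409056 (limma adjusted p = 0.208 and 0.718, 25.2% of probes passing). Both passed with the methods' scaling (0.35 and 0.24), with normexp and trimmed mean (0.25 and 0.21) and in the deposited table (0.35 and 0.24), at adjusted p from 0.00747 to 0.0552 and with the median of all tested probes at 0.17.

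Detection differed between the probes. ORB_0409056 was above threshold on 144 of 144 arrays. Its background-subtracted intensity ran from 36.3 to 104 units (median 62.0), or 1.16 to 4.40 times the array's threshold. ORB_1112422 was above threshold on 134 of 144 arrays and on all 8 arrays in 11 of the 18 groups. Its intensity ran from 16.0 to 91.0 units (median 46.2), or 0.571 to 4.70 times the threshold. DM at month 6 was above threshold on 5 of 8 arrays for ORB_1112422. Replicates 3, 4 and 8 read 24.7, 17.3 and 16.0 units against thresholds of 43.2, 25.4 and 23.1. The 8 crocidolite arrays of month 6 were all above threshold. With a threshold of 3 times the SD, 142 of 144 arrays and all arrays in 16 groups were above it.

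**Figure D4:**
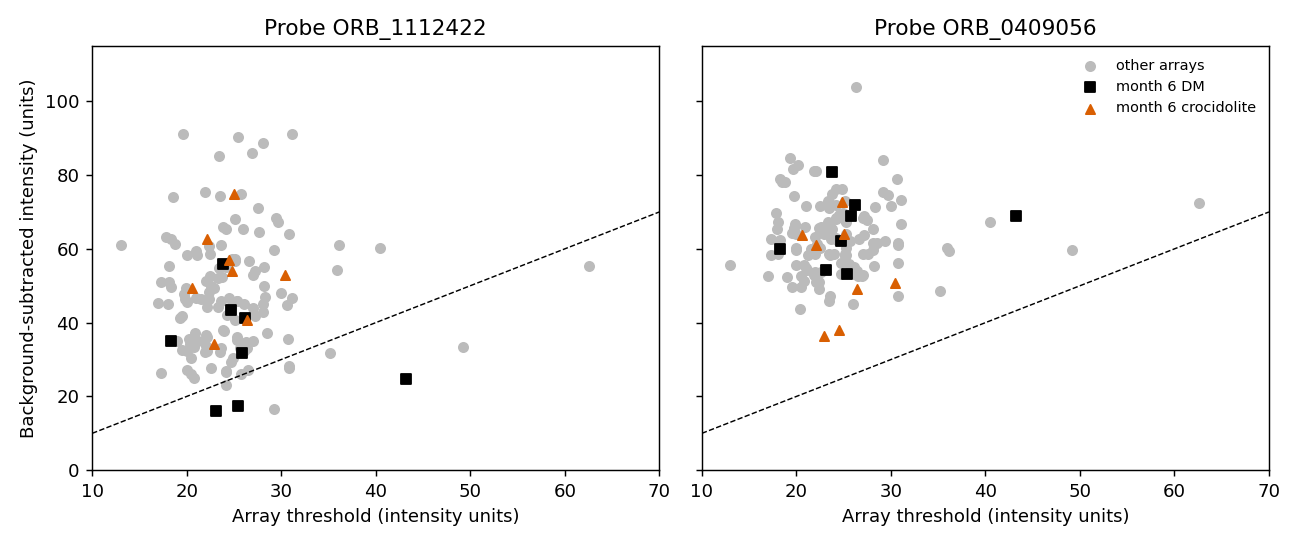
Background-subtracted intensity of each probe against the threshold of the same array, both in intensity units, for 144 arrays. The dashed line marks equality, and 3 of the 8 month 6 DM arrays (squares) lie below it for ORB_1112422, at 16.0 to 24.7 units, while no array does for ORB_0409056.

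The 3 spots of a probe on an array gave the technical spread. The SD between single spots, before normalization, was 0.16 for ORB_1112422 and 0.12 for ORB_0409056. Between mice of a group it was 0.16 and 0.15, for the normalized means of 3 spots. A mean of 3 spots varies less than a single spot, so these SDs are not directly comparable. Of the 432 spots, the scanner software marked 11 as not found for ORB_1112422, of which 3 were in DM and 1 in crocidolite at month 6, and 0 for ORB_0409056.

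Array brightness moved with both probes. The relation was not computed for the other tested probes, so whether it is particular to these 2 was not tested. Over the 128 arrays that did not choose the probes, with group means removed, the normalized level of ORB_0409056 fell with brightness (Pearson r = -0.64, Spearman rho = -0.65, permutation test within groups with 100000 resamples, two-sided p = 1e-05 for each, the smallest it can give). Adjusted over the 4 relations computed, p was 2e-05 and 1.3e-05, and r was -0.60 without the 2 arrays farthest from the median brightness. The 4 include the 2 relations before scaling given below. There a rise was to be expected, because brightness averages such intensities, so the adjustment is a weak one. The level of ORB_1112422 rose with brightness more weakly (r = 0.23, rho = 0.26, permutation p = 0.015 and 0.0056, adjusted p = 0.015 and 0.0056, r = 0.17 without the 2 farthest arrays). Before scaling, the log2 intensity of ORB_1112422 rose by 1.32 for each log2 unit of brightness and that of ORB_0409056 by 0.40 (r = 0.60 and 0.38, rho = 0.60 and 0.41).

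**Figure D5:**
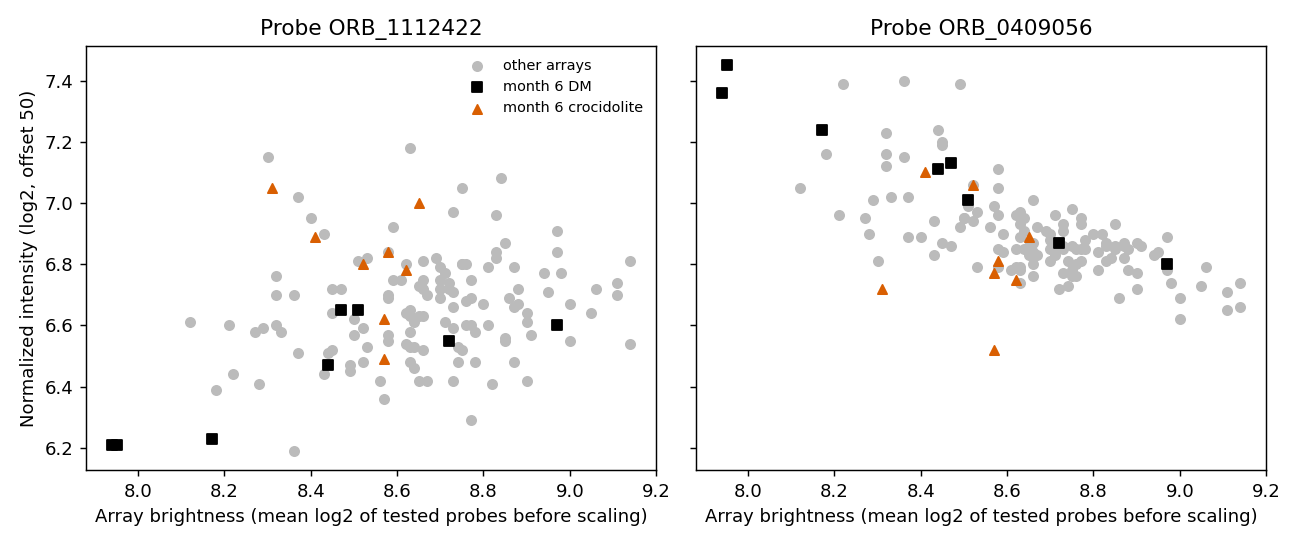
Normalized level (log2, offset 50) against array brightness (mean log2 intensity of tested probes before scaling) for 144 arrays, with ORB_1112422 on the left and ORB_0409056 on the right. The month 6 DM arrays (squares) at 7.94 and 7.95 are the dimmest of all, with ORB_0409056 at 7.36 and 7.45 and ORB_1112422 at 6.21 on both.

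With brightness as a linear term, the month 6 crocidolite difference was 0.33 ± 0.08 for ORB_1112422 and -0.23 ± 0.06 for ORB_0409056. Without the 2 dimmest DM arrays it was 0.28 ± 0.08 and -0.20 ± 0.08, and the MWCNT mean minus DM was 0.13 and -0.09. Both settings were chosen after the data were seen. On the 4 scan days with arrays of both groups, the crocidolite difference was 0.32, 0.45, 0.21 and 0.39 for ORB_1112422 and -0.30, -0.18, -0.25 and -0.47 for ORB_0409056, from 1 to 3 arrays a side. Doses at slide positions B and D (1 and 40 µg) were set against doses at A and C (10 and 80 µg). Neither probe passed, at -0.01 ± 0.03 and -0.03 ± 0.03 over the 3 months (limma adjusted p = 0.998 for both, 0% of probes passing). At months 1, 6 and 12 the difference was -0.06, -0.01 and 0.04 for ORB_1112422, each ± 0.06. For ORB_0409056 it was -0.11, 0.03 and 0, each ± 0.05. The -0.11 at month 1 had a limma p of 0.0277 before adjustment and 0.946 after it. Position and dose cannot be told apart in this comparison, so an effect of position alone was not tested. With position as a term in the fit, estimated from few arrays off their usual position, the crocidolite difference of ORB_1112422 at month 6 was 0.60 ± 0.12.

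The group means of the 2 probes correlated at r = -0.53 over the 18 groups. Over the 128 arrays that did not choose them, with group means removed, r was -0.27. The tested probes with the most similar 18 group means were ORB_1112329 (r = 0.80) and ORB_1209024 (r = 0.79) for ORB_1112422, and ORB_0608061 (r = 0.90) and ORB_0908036 (r = 0.89) for ORB_0409056, where the median over all tested probes was -0.06 and 0.03. The next probe in order was at 0.78 and 0.89, so the named probes do not stand apart from it. The highest values also exceed the median by construction. These correlations are descriptions over groups that share slides, scan days and the same DM mice, and 16 of the arrays behind them chose the probes.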

How the data were processed

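Blood small RNA of 144 mice was measured on single-colour arrays. The members and lists were chosen with earlier results of these data known. The authors deposited the median foreground and background intensity of each spot from GenePix, unnormalized, with a quality flag score for each spot, and a table of log2 normalized values. Per array, that table was the averaged log2 of foreground minus background over spots not flagged bad or absent, shifted by 1 constant (SD of the difference at most 1.21e-09). Its scale and direction are therefore known. Spots marked as not found were kept in these averages. Its column medians ran from 4.46 to 6.97. The deposited flag score removed bad or absent spots. 1 file, another scan, was not used.

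From the intensities, normexp background correction (offset 50), log2, averaging of 3 spots and quantile normalization of 1262 mouse probes were done in limma 3.58.1 (R 4.3.3). A probe was kept (742, 58.8%) where some group had it above threshold on all of its 8 arrays, and 411 were above it on all 144 arrays. Array thresholds were 13.0 to 62.6 units. The empty spots' own SD was used in place of the SD of the area between spots named in the methods. Quantile normalization, in place of the methods' trimmed-mean scaling, is the main setting. 1 limma fit held 18 group means, p was two-sided and adjusted by Benjamini-Hochberg within a comparison, and a probe passed at an adjusted p under 0.10. Probes named were the 2 members and the 2 probes nearest each by group means. The scripts were tested on simulated data. The number of arrays limits precision. Alternatives covered background, scaling, filter, spots, slide, scan day, position, test and left-out arrays.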

Additional observations from a re-analysis of the deposited data

Results flagged for a closer look

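4 of the 36 combinations of probe and group held 1 mouse far from the other 7 by Dixon's criterion, which chance meets in about 1 in 20 groups. ORB_1112422 was at 6.19 in replicate 8 of 10 µg MWCNT at month 1, where the nearest mouse was at 6.61, and its intensity of 16.7 units was below the array's threshold. On the same array ORB_0409056 was the highest of its group, at 7.40 with the nearest mouse at 6.96. ORB_1112422 was at 6.97 in replicate 8 of 80 µg MWCNT at month 6, with the nearest mouse at 6.70. ORB_0409056 was at 7.20 in replicate 7 of DM at month 12, with the nearest mouse at 6.95. The arrays of the first mouse and of the DM mouse are among the 4 that were scanned after a repeat dip. No array of DM or crocidolite at month 6 stood apart by this criterion.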

How the results depend on the processing

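No paired analysis was possible because the labels give no replicate numbers and each mouse was in 1 group. The rise of ORB_1112422 from month 1 to month 12 passed under all 11 alternatives (0.15 to 0.38, adjusted p at most 0.0125). For ORB_1112422 the month 6 crocidolite difference was 0.55 with an offset of 16, 0.04 with normexp and trimmed-mean scaling (median of all probes -0.19) and 0.60 with position. For ORB_0409056 it was -0.58 with the methods' subtraction and scaling and -0.62 in the deposited table (median of all probes -0.17 and -0.22). The MWCNT mean minus DM at month 6 was -0.13 for ORB_1112422 with normexp and trimmed-mean scaling, and for ORB_0409056 -0.40, -0.34 and -0.44 with the methods' scaling, normexp and trimmed mean, and the deposited table. The month 1 crocidolite difference of ORB_1112422 became 0.17 with position. That of month 12 became -0.07 with normexp and trimmed mean and -0.05 without the 4 arrays scanned after a repeat dip, where ORB_0409056 was at 0.00.

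With position in the fit, 1 MWCNT difference of ORB_1112422 passed at months 1 and 12, 40 µg at month 12 (0.47, adjusted p = 0.088, against 0.395 to 0.999 under the others run). The position term rested on few arrays off their usual position. Month 6 against month 1 over the MWCNT doses was 0.35, 0.25 and 0.35 for ORB_1112422 and 0.24, 0.21 and 0.24 for ORB_0409056 with the methods' scaling, normexp and trimmed mean, and the deposited table, all past the threshold, while the median of all probes moved by 0.17. With brightness in the fit it was 0.09 (adjusted p = 0.0599) and -0.03, and with scan day 0.00 for ORB_0409056. Month 12 against month 1 for ORB_0409056 was -0.06 with brightness (adjusted p = 0.0349). The causes of these changes were not tested.

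Leaving out each of the 16 arrays in turn gave 0.32 to 0.40 and -0.34 to -0.25 for the crocidolite difference at month 6 (ORB_1112422 and ORB_0409056), -0.10 to -0.04 and -0.14 to -0.05 at month 1, and -0.03 to 0.09 and -0.07 to 0.00 at month 12, where -0.03 was without crocidolite replicate 6. None passed at months 1 and 12. Of 355 values recomputed, 330 kept their direction and side of the threshold, kept their count of passing comparisons or moved by less than the spread. Another 9 moved by more or changed that count, 8 reversed and 8 newly passed. The month comparisons within 1 exposure were not among these values. Of those that passed in the main setting, ORB_1112422 at 40 µg kept its pass in 11 of 12 alternatives and ORB_0409056 at 80 µg in 8 of 13. Requiring a probe above threshold on all arrays gave no value for ORB_1112422, which was at or below it on 10 arrays.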
